A study of Rattus norvegicus with 172 samples.

Results

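Liver RNA of 7 rats that received furan at 0.5 mg/kg body weight per day was compared with liver RNA of the 8 control rats of the same experiment. The members were the rats whose names start with MD (Diet D, furan) and with MC (Diet C, control 0), 15 of the 70 rats of the series, and the comparison ran across all genes. All were male Fischer 344 rats, which the series title gives as exposed for 90 days, with no age stated. The groups differed in the labelled diet, and no other treatment or genotype is named. The other furan groups used below held 8 rats at 0.03, 8 rats at 0.12 and 7 rats at 2.0 mg/kg per day.

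Furan is a small aromatic ring that forms in heated food. In hepatocytes the P450 enzyme CYP2E1 opens the ring to a reactive dialdehyde, which binds thiols and amines, and high doses are known to injure rat hepatocytes and to bring on bile duct proliferation and fibrosis. The liver also carries a circadian clock, in which repressors of the REV-ERB, cryptochrome and period families restrain their own activators, and it responds to adrenal glucocorticoids, which vary over the day. No label gives the time of day at which livers were taken.

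Polyadenylated RNA was read in 2 sequencing runs per rat, and the counts of both runs were summed. Total counts ran from 14142705 to 19558663 in furan 0.5 rats and from 13970556 to 18383386 in controls. Nothing in the labels gives a batch or an animal's litter. The hepatocyte marker list summed to between 138000 and 161000 CPM (counts relative to library size, after TMM scaling) in furan 0.5 rats and between 149000 and 175000 CPM in controls. The top 10 genes of each library held 25.6 ± 0.55% of its counts in furan 0.5 rats and 26 ± 0.46% in controls (SD, n = 7 and 8; exact two-sided permutation p = 0.122). TMM factors, which correct for composition, ran from 0.918 to 1.063 in furan 0.5 rats and from 0.894 to 0.963 in controls (exact two-sided permutation p = 0.0309). Furan 0.5 livers MD063 and MD069 stood apart from the others. On the first principal component of the 15 livers (19.2% of variance) they lay at -42.3 and -32.9, while the other 13 lay between -7.1 and 19.3. Several results that rest on this pair are given with and without it. The pair's TMM factors, 1.063 and 1.023, were the highest among furan 0.5 rats, and the TMM test is given only with them.

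Of 12727 genes tested, 402 were called different in furan 0.5 livers at an edgeR quasi-likelihood adjusted p under 0.05, which is 3.16% of the genes. Furan 0.5 livers were higher for 191 of them (1.5% of genes tested) and lower for 211 (1.66%). With scaling by library size alone, 330 were called higher and 98 lower and the median of all genes moved to 0.075 (0.0069 with TMM), so the split between the directions depends on the scaling. Most differences were small: the median size among called genes was 0.5 on the log2 scale, 157 passed 1.5-fold and 60 passed 2-fold. The 7 furan 0.5 livers did not overlap the 8 controls for 111 genes, which is 0.872% of the genes tested, and 95 of these were called. For 349 of the 402 called genes all 7 furan 0.5 livers lay on one side of the control mean. The authors' deposited table lists 561 genes at an adjusted p under 0.05 for this dose, 257 higher and 304 lower. It holds all 402 genes called here with the same direction.

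Genes of the core clock differed in both directions. Of 18 clock genes tested, 2 were called higher and 5 lower in furan 0.5 livers, beside 1.5% and 1.66% of all genes tested. Their median log2 fold change was -0.12, beside 0.0069 over all genes. Nr1d1 (ENSRNOG00000009329) encodes REV-ERB alpha, the haem receptor that represses the clock activator Arntl. It measured 12.8, 11.8, 8.79, 16.1, 19.8, 25.3 and 33.6 CPM in furan 0.5 livers MD063, MD069, MD072, MD064, MD071, MD062 and MD067. In controls it measured 2.42, 2.49, 2.97, 3.23, 3.25, 4.45, 4.8 and 7.69 CPM, the highest in MC011. The groups did not overlap, and the log2 fold change was 2.22 ± 0.34 (SE; edgeR adjusted p = 0.000513). Leaving out each of the 15 rats in turn gave adjusted p from 0.000512 to 0.00232. Nr1d1 overlaps the thyroid hormone receptor gene Thra in the GRCr8 assembly; Thra differed by -0.11 (edgeR adjusted p = 0.709). The strand setting of the counting is not given, so reads of overlapping genes could not be told apart.

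The related repressor gene Nr1d2 (REV-ERB beta) averaged 22.5 ± 3.16 CPM in furan 0.5 livers and 13.5 ± 3.16 CPM in controls (SD, n = 7 and 8; log2 fold change 0.73, edgeR adjusted p = 0.00356). Bhlhe40, encoding the clock repressor DEC1, fell to 33.5 ± 15.1 CPM in furan 0.5 livers, against 80.5 ± 16.2 CPM in controls (log2 fold change -1.26 ± 0.25, edgeR adjusted p = 0.00383). Liver MD064 (56.3 CPM) lay above the lowest control (52.9 CPM), and the other 6 furan 0.5 livers lay below all controls. The cryptochrome gene Cry2 fell by 0.68 on the log2 scale and Cry1 by 0.64 (edgeR adjusted p = 0.0131 and 0.0276). Cry1 ranged from 6.02 to 12.4 CPM in furan 0.5 livers and from 12.6 to 19.7 CPM in controls, without overlap, and its call was lost when any of 3 single rats was left out. Hlf, a PAR bZIP output factor, was called lower too (-0.43, edgeR adjusted p = 0.0341).

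Other clock genes did not pass the edgeR test with all rats. Per2 averaged 21 ± 7.39 CPM in furan 0.5 livers and 35.3 ± 9.3 CPM in controls (-0.75, edgeR adjusted p = 0.083). Control MC011 held 16.5 CPM of Per2 while the other controls held 29.8 to 46.2 CPM. Without MC011 the edgeR adjusted p of Per2 was 0.0391. DESeq2 with all rats called Per2 lower (-0.75, DESeq2 adjusted p = 0.0405). Over the alternatives run the adjusted p of Per2 ranged from 0.0391 to 0.17. Per1 differed by 0.35, Per3 by 0.56, Dbp by 0.06, Arntl by -0.24 and Clock by -0.03 (edgeR adjusted p = 0.38, 0.214, 0.924, 0.0743 and 0.862).

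**Figure D1:**
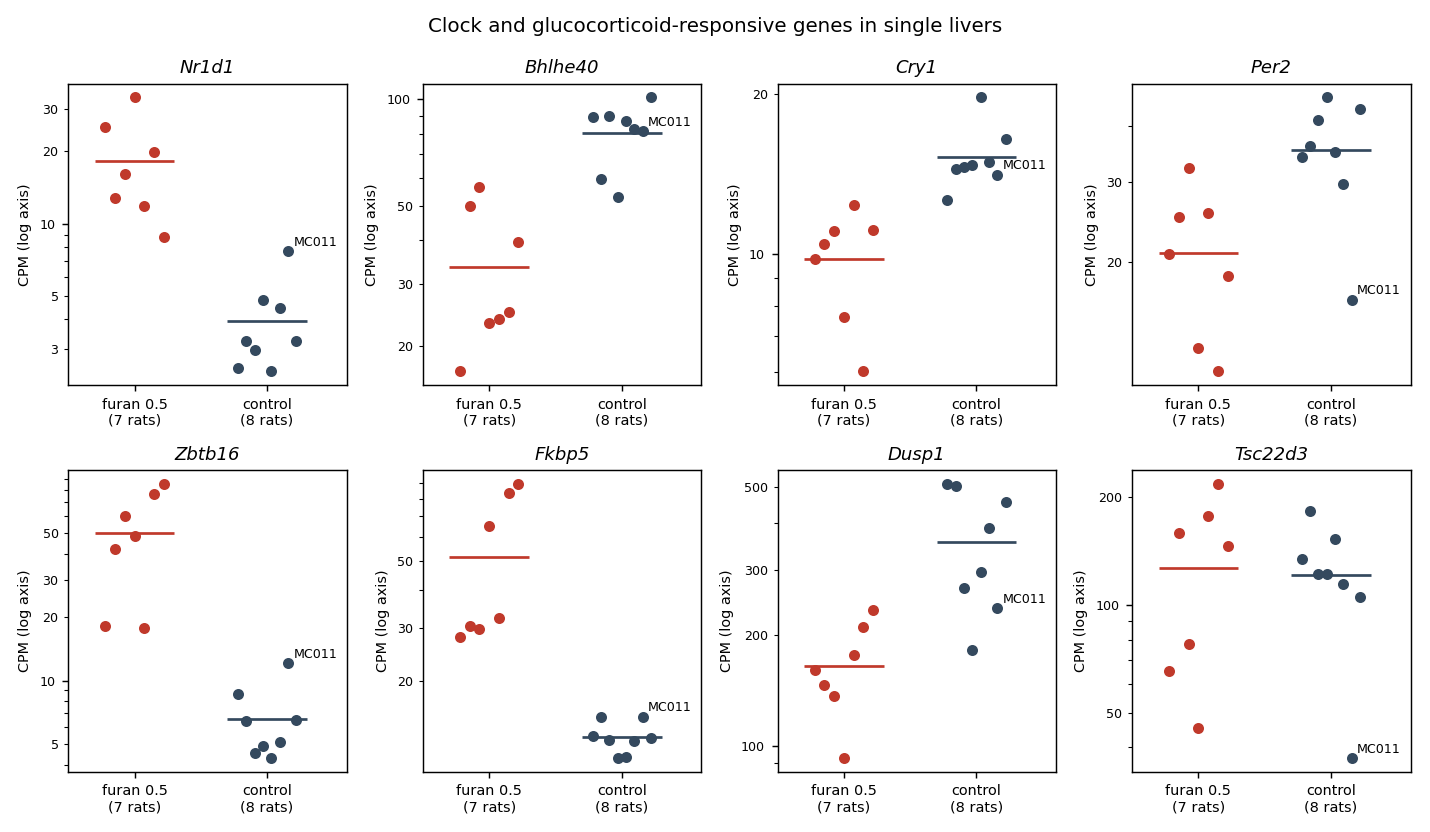
CPM per liver (log axis) of 4 clock genes (top) and 4 glucocorticoid-responsive genes (bottom) in 7 furan 0.5 livers and 8 control livers; each point is a rat and each line the group mean. The groups do not overlap for Nr1d1, Cry1, Zbtb16 and Fkbp5, and control MC011 lies nearest to the furan 0.5 livers for Nr1d1 and Zbtb16.

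Promoters of called clock genes are shown because that list held the most calls. RefSeq promoter windows (GRCr8, from 250 bases before the transcription start to 50 after it) were matched by symbol for 305 of the 402 called genes and for 4 of the 7 called clock genes. The lines below give the 250 bases before the start, 5′ to 3′ on the gene's strand, with any CACGTG (the E-box bound by CLOCK and its partner) or AGGTCA (the half-site of REV-ERB receptors), read on both strands, in capitals. The windows are chr10:84231813-84232062, minus strand for Nr1d1; chr15:9954784-9955033, plus strand for Nr1d2; chr4:143174200-143174449, plus strand for Bhlhe40; and chr3:98860438-98860687, minus strand for Cry2.
Nr1d1: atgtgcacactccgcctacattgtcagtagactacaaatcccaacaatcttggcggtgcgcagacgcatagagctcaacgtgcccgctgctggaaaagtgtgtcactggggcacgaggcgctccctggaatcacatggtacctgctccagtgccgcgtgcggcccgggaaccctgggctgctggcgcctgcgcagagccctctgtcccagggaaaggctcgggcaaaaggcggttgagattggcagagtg
Nr1d2: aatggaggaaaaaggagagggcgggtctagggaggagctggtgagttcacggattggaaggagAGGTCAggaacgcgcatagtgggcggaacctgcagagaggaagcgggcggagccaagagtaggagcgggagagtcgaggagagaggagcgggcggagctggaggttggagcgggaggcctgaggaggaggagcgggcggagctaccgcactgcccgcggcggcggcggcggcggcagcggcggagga
Bhlhe40: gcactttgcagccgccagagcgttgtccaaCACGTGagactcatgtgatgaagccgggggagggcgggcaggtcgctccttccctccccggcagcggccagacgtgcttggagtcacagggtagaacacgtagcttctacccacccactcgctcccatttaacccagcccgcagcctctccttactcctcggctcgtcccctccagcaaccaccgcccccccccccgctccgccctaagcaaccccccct
Cry2: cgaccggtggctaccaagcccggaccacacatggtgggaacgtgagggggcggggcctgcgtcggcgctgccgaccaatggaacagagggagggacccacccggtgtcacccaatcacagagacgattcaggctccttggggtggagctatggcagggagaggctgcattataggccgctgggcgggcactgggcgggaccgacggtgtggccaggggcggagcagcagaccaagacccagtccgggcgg
An AGGTCA began 187 bases before the start of Nr1d2 and a CACGTG 220 bases before that of Bhlhe40. The windows of Nr1d1 and Cry2 held neither. CACGTG stood in 11.5% of the windows of called genes and 6.65% of all 27457 windows, or 9.33% of those of tested genes. AGGTCA stood in 12.1% of called genes' windows, 15.7% of all windows and 12.2% of tested genes' windows. The antioxidant response element core TGACNNNGC stood in 15.1% of called genes' windows, 12.2% of all windows and 14.8% of tested genes' windows. These matches describe letters, not binding.

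Of 17 glucocorticoid-responsive genes tested, 5 were called higher and 1 lower, beside 1.5% and 1.66% of all genes tested. Their median log2 fold change was 0.19. Zbtb16 (ENSRNOG00000029980), encoding the zinc finger repressor PLZF, held 17.8, 18.1, 41.9, 48.4, 60.2, 76.8 and 85.3 CPM in furan 0.5 livers, against 4.3, 4.56, 4.92, 5.15, 6.46, 6.49, 8.62 and 12.1 CPM in controls. The lowest furan 0.5 livers were MD069 and MD062, the highest control was MC011, and the groups did not overlap. The log2 fold change was 2.92 ± 0.55 (edgeR adjusted p = 0.00218; 0.00149 to 0.00681 with each of the 15 rats left out). Fkbp5 (ENSRNOG00000022523), whose product is a co-chaperone of the glucocorticoid receptor, held 28, 29.8, 30.5, 32.2, 65.2, 83.5 and 89.4 CPM in furan 0.5 livers, against 11.2 to 15.3 CPM in controls (median 12.9). Furan 0.5 livers MD067, MD071 and MD072 were high, and the other 4 lay close together above all controls. Its log2 fold change was 1.97 ± 0.37 (edgeR adjusted p = 0.00218).

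Klf13, a Krüppel-like repressor gene, averaged 5.86 ± 1.55 CPM in furan 0.5 livers and 2.98 ± 0.711 CPM in controls (0.98, edgeR adjusted p = 0.00147). The metallothionein gene Mt1m ranged from 29.6 to 157 CPM in furan 0.5 livers and from 13.2 to 54.9 CPM in controls (1.66, edgeR adjusted p = 0.0277), and its call was lost when any of 7 single rats was left out. Metallothionein genes are near-identical and their reads may be shared; Mt1 differed by 1.22 (edgeR adjusted p = 0.0849). The cell cycle inhibitor gene Cdkn1a differed by 0.63 (edgeR adjusted p = 0.0456), a call lost without any of 11 single rats. Dusp1, a MAP kinase phosphatase gene that glucocorticoids induce, went the other way. It averaged 165 ± 46.7 CPM in furan 0.5 livers and 355 ± 127 CPM in controls (-1.1 ± 0.23, edgeR adjusted p = 0.00508). Tsc22d3, encoding the glucocorticoid-induced leucine zipper, differed by 0.07 and Sgk1 by -0.56 (edgeR adjusted p = 0.939 and 0.326). Tsc22d3 spread from 45.3 to 218 CPM in furan 0.5 livers and from 37.3 to 183 CPM in controls.

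Other large rises had mixed functions. Gpat3, an acyltransferase of triglyceride synthesis, averaged 2.77 ± 1.28 CPM in furan 0.5 livers and 0.588 ± 0.348 CPM in controls (log2 fold change 2.21, edgeR adjusted p = 0.000764). Zfp354a, a zinc finger gene, averaged 134 ± 61.9 CPM in furan 0.5 livers and 32.6 ± 14.9 CPM in controls (2.04), and the groups did not overlap. The mitochondrial folate carrier gene Slc25a32 held 18.6, 22.4, 24.9, 44.2, 58.9, 93.4 and 94.3 CPM in furan 0.5 livers, against 13.1 to 24.4 CPM in controls (1.62). Its higher mean lay with MD071, MD072, MD069 and MD063, while MD062 and MD067 fell inside the control range. Dcaf13, within 5000 bases of Slc25a32 in GRCr8, rose as well (0.83, edgeR adjusted p = 0.00291). Sidt1, Prr32, Rhbdd2 and the actin-binding gene Ablim3 rose by 1.94, 2.27, 1.48 and 1.39 without overlap between the groups. The kinase gene Map3k6 rose by 1.5, a call lost without MD063. Without MD063 and MD069 together Map3k6 rose by 1.22 (edgeR adjusted p = 0.082). With all rats the edgeR adjusted p of these genes ran up to 0.0139 (Map3k6).

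The smallest adjusted p among higher genes included Baiap2l1, an adaptor that bends membranes. It held 45.8 to 76 CPM in furan 0.5 livers (median 63.8) and 25.3 to 36.7 CPM in controls (median 31.6), a log2 fold change of 1 ± 0.16 (edgeR adjusted p = 0.000513). The phosphatase gene Ptp4a1 (0.87), the nucleotidase gene Entpd7 (1.16) and the low-level gene L1td1 (1.94; 0.822 ± 0.424 CPM in furan 0.5 livers, 0.209 ± 0.0501 CPM in controls) also showed no overlap. For L1td1 the groups all but touched, with 0.279 CPM (5 counts) in MD071 and 0.276 CPM (4 counts) in control MC007. Eif2ak3, encoding the endoplasmic reticulum stress kinase PERK, averaged 25.8 ± 3.29 CPM in furan 0.5 livers and 18.1 ± 2.54 CPM in controls (0.52, edgeR adjusted p = 0.000849). Dnajb9, an endoplasmic reticulum co-chaperone, rose by 0.74 (edgeR adjusted p = 0.00871), with MD069 and MD063 (32.2 and 48.2 CPM) inside the control range of 26.7 to 48.4 CPM. It was the 1 called gene of the list of 26 ATF4 and unfolded protein response genes (median 0.02), near the 3.16% called over all genes. That list does not hold Eif2ak3.

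In glucose metabolism 2 of 19 genes were called, both higher, beside 1.5% of all genes called higher. Pfkfb1, the bifunctional enzyme that sets hepatic fructose 2,6-bisphosphate, averaged 102 ± 25 CPM in furan 0.5 livers and 54.6 ± 17.1 CPM in controls (0.91, edgeR adjusted p = 0.00321). Ppargc1a, encoding the fasting coactivator PGC-1 alpha, averaged 4.71 ± 1.68 CPM in furan 0.5 livers and 2.32 ± 0.754 CPM in controls (1.01, edgeR adjusted p = 0.0177); its call was lost without MD072. The xenobiotic P450 list of 24 genes includes the reductase gene Por. Of the list, 2 were called higher, Por and the P450 gene Cyp3a62, beside 1.5% of all genes tested, and 0 were called lower. The list leaned down, with a median of -0.14 and a positive log2 fold change for 7 of the 24. Por, the reductase that feeds electrons to microsomal P450s, rose to 165 ± 35 CPM in furan 0.5 livers, against 97.3 ± 20.3 CPM in controls (0.76, edgeR adjusted p = 0.0138). Tmem120a, within 5000 bases of Por in GRCr8, rose by 0.4 (edgeR adjusted p = 0.0456). Cyp3a62 rose by 0.73 (edgeR adjusted p = 0.0453), a call lost without any of 10 single rats, and its reads may be shared with other members of the CYP3A family. Cyp2e1, the enzyme that activates furan, averaged 3258 ± 684 CPM in furan 0.5 livers and 3176 ± 621 CPM in controls (0.04 ± 0.16, edgeR adjusted p = 0.943). Abcb4, the phosphatidylcholine exporter of bile, was the 1 called gene of 23 bile acid genes (0.42, edgeR adjusted p = 0.0217), near the 3.16% called over all genes. Its call was lost without MD063 or MD071, and without MD063 and MD069 together (0.31, edgeR adjusted p = 0.135).

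Among the genes that fell, those with the smallest adjusted p differed by less than 2-fold and showed no overlap. The zinc finger gene Zfp467 held 13.3 to 18.9 CPM in furan 0.5 livers (median 17) and 21.4 to 35.4 CPM in controls (median 29.6), a log2 fold change of -0.78 ± 0.12 (edgeR adjusted p = 0.000513). Bahcc1 (-0.8), Gramd4 (-0.73), the GTPase-activating protein gene Arhgap29 (-0.76), the elongation factor gene Ell (-0.75) and the chromatin remodeller gene Arid1a (-0.42) behaved alike, with edgeR adjusted p up to 0.00147 (Ell).

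Larger falls were those of Pparg, a nuclear receptor gene of lipid storage (-1.11, edgeR adjusted p = 0.00461), the TEAD co-repressor gene Vgll4 (-1.18, 0.00376) and Cd274, encoding PD-L1 (-1, 0.00218). Pparg averaged 2.53 ± 0.637 CPM in furan 0.5 livers and 5.48 ± 2.28 CPM in controls. Vgll4 did not overlap, with 3.94 to 5.62 CPM in furan 0.5 livers and 7.48 to 17.7 CPM in controls. Mid1ip1, whose product activates acetyl-CoA carboxylase, fell by 0.97 on the log2 scale, and the glycosyltransferase gene Gcnt4 by 1.12 (edgeR adjusted p = 0.021 and 0.00525). The call on Mid1ip1 was lost without MD071, MD072 or MC007, and without MD063 and MD069 together (0.0887; 0.00268 to 0.0887 over the alternatives run). The mitochondrial carrier gene Slc25a30 and the potassium channel gene Kcnj3 fell by 1.4 and 1.22, calls lost without any of 7 and 8 single rats. Slc25a30 showed 3 high controls, MC009, MC003 and MC010 (57.7, 59.1 and 71.5 CPM), while the other 5 controls held 18.6 to 26.9 CPM and furan 0.5 livers 8.92 to 19.7 CPM. In cholesterol metabolism 2 of 24 genes were called lower, beside 1.66% of all genes tested. The list median was -0.13, and 4 of the 24 had a positive log2 fold change. Among the 2 was the sterol carrier gene Stard4 (-0.56, edgeR adjusted p = 0.0228), whose call was lost without MD067 or MC009. Of 16 fatty acid synthesis genes 0 were called by edgeR, DESeq2 or limma voom. An unadjusted edgeR p under 0.05 was met by 2 of the 16, beside 2182 of all 12727 genes tested. The list median was -0.28, and Fasn ranged from 107 to 570 CPM in furan 0.5 livers and from 98.6 to 621 CPM in controls.

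The largest fitted falls belonged to genes that split the controls. A1bg, a plasma glycoprotein gene, held 0.188 to 0.713 CPM in furan 0.5 livers. In controls it held 14.3, 31.2, 38, 49.2 and 60.6 CPM in MC009, MC007, MC008, MC010 and MC004, and 0.404, 0.472 and 1.41 CPM in MC011, MC012 and MC003. Its log2 fold change was -5.82 ± 1.39 (edgeR adjusted p = 0.0153; limma voom 0.389, the highest of the alternatives run, which go down to 4.23e-06). The carboxypeptidase gene Cpa1 had 0 to 2 counts in each furan 0.5 liver. Controls MC009, MC008, MC007, MC004 and MC010 had 12, 55, 55, 67 and 111 counts, and MC012, MC011 and MC003 had 0, 1 and 6, so the same 3 controls were low for both genes. Cpa1 was called lower (edgeR adjusted p = 0.00947; limma voom 0.145, the highest of the alternatives run, which go down to 0.00039). It was the 1 called gene of 3 pancreatic acinar markers tested. Of 9 such markers in the table, 0 had no count in all 15 livers. The list summed to 12.1 to 19.2 CPM in furan 0.5 livers and 12.1 to 30.3 CPM in controls, and the part of acinar tissue in the result was not tested.

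Of 14 altered hepatocyte and oncofetal markers, 2 were called higher, beside 1.5% of all genes tested. Their median log2 fold change was 0.75 with all rats and 0.22 without MD063 and MD069. Cd24, a surface glycoprotein gene of progenitor cells, held 1.84 to 4.74 CPM in furan 0.5 livers and 0.756 to 1.72 CPM in controls (log2 fold change 1.15 ± 0.23, edgeR adjusted p = 0.00291; 0.97 without MD063 and MD069, 0.02). Aldh1a7, an aldehyde dehydrogenase gene at 0.667 CPM in furan 0.5 livers and 0.206 CPM in controls, rose by 1.62 (edgeR adjusted p = 0.0214). It was also the 1 called gene of 32 NRF2 targets (median 0), near the 3.16% called over all genes. Gstp1, the placental glutathione S-transferase that marks altered foci in rat liver, averaged 18.9 ± 7.86 CPM in furan 0.5 livers and 13 ± 3.55 CPM in controls (0.53, edgeR adjusted p = 0.356). Its 3 highest furan 0.5 livers were MD069, MD063 and MD072 with 31.9, 24.8 and 23.4 CPM, and the other 4 lay within the control range. The glutathione synthesis genes Gclc and Gclm differed by -0.33 and -0.23 (edgeR adjusted p = 0.146 and 0.481). Phgdh, the first enzyme of serine synthesis, differed by 1.43 (edgeR adjusted p = 0.3), with 2 controls, MC004 and MC003, at 5.22 and 7.22 CPM and the other 6 at 0.337 to 0.81 CPM.

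The remaining lists held few calls. Cdkn1a was the 1 called gene of 23 p53 targets (median 0.09), and A1bg the 1 called gene of 22 sex-biased and growth hormone-regulated genes (median -0.18). Both counts lie near the 3.16% called over all genes. In all, 18 of the 33 lists had 0 calls by edgeR. An unadjusted edgeR p under 0.05 was met by 34 of their 262 tested genes, beside 2182 of all 12727 genes tested. DESeq2 called 2 of the 262 genes, the lipase inhibitor gene Angptl4 and the metal transporter gene Slc11a2, and limma voom called Angptl4. Medians of the lists with 0 calls lay between -0.28 for fatty acid synthesis and 0.64 for 4 adipocyte markers. PPAR alpha targets (-0.04), serine and one-carbon genes (0.06), urea cycle genes (-0.02), pericentral genes (-0.17), positive acute phase genes (-0.09), interferon response genes (-0.03), heat shock genes (0.11) and iron genes (-0.07) lay between these. Among cell markers, medians were 0.04 for macrophages, 0.01 for T and NK cells, -0.06 for B cells, 0.52 for neutrophils, -0.1 for sinusoidal endothelium, -0.11 for red blood cells and -0.06 for hepatocytes.

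Much of the difference in matrix, bile duct and cell cycle genes lay with livers MD063 and MD069. The pair was picked from the first principal component of these same values, and no other pair was examined. The set below therefore describes the pair and does not test it. Of 177 genes that differed by at least 2-fold, 51 met both of these conditions. Both livers were the most extreme furan 0.5 livers in the direction of the difference, whether higher or lower. More than 50% of the difference in mean log2 CPM was lost without the pair. The 51 were higher in furan 0.5 livers, and 1 was called. That gene was Spp1 (ENSRNOG00000043451), encoding osteopontin, a matrix protein of bile duct cells and macrophages. Spp1 held 16.9 and 9.82 CPM in MD063 and MD069 and 0.188, 0.427, 0.563, 0.627 and 0.836 CPM in the other furan 0.5 livers, against 0.174 to 0.625 CPM in controls. The log2 fold change was 3.42 ± 0.99 (edgeR adjusted p = 0.0473) with all rats and 0.44 (0.914) without the pair, and the call was lost without any of 10 single rats (adjusted p 0.0037 to 0.914 over the alternatives run).

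The macrophage elastase gene Mmp12 held 24.3 and 27.1 CPM in MD063 and MD069, 0.422 to 1.25 CPM in the other 5 furan 0.5 livers and 0.484 to 1.02 CPM in controls (3.25, edgeR adjusted p = 0.0605). Gpnmb, a glycoprotein gene of lipid-laden macrophages, held 118 and 94.1 CPM in the pair, 20.8 to 28.9 CPM in the other 5 and 14.9 to 33.3 CPM in controls. Trem2, the receptor gene of the same cells, held 2.29 and 2.56 CPM in the pair, 0 to 0.251 CPM in the other 5 and 0 to 0.206 CPM in controls. The type I collagen gene Col1a1 held 91 and 36.2 CPM in the pair, 6.65 to 10.9 CPM in the other 5 and 4.92 to 19.5 CPM in controls (1.29, edgeR adjusted p = 0.294; -0.22 without the pair, 0.925). The lysozyme gene Lyz2, the lipoprotein lipase gene Lpl, the complement gene C7 and the glutathione peroxidase gene Gpx2 followed the same order, with 81 and 46.1, 32.7 and 18.8, 32.4 and 19.6, and 4.07 and 3.73 CPM in MD063 and MD069. The other 5 furan 0.5 livers held at most 12.5 CPM of Lyz2, 9.72 CPM of Lpl, 6.71 CPM of C7 and 1.22 CPM of Gpx2.

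**Figure D2:**
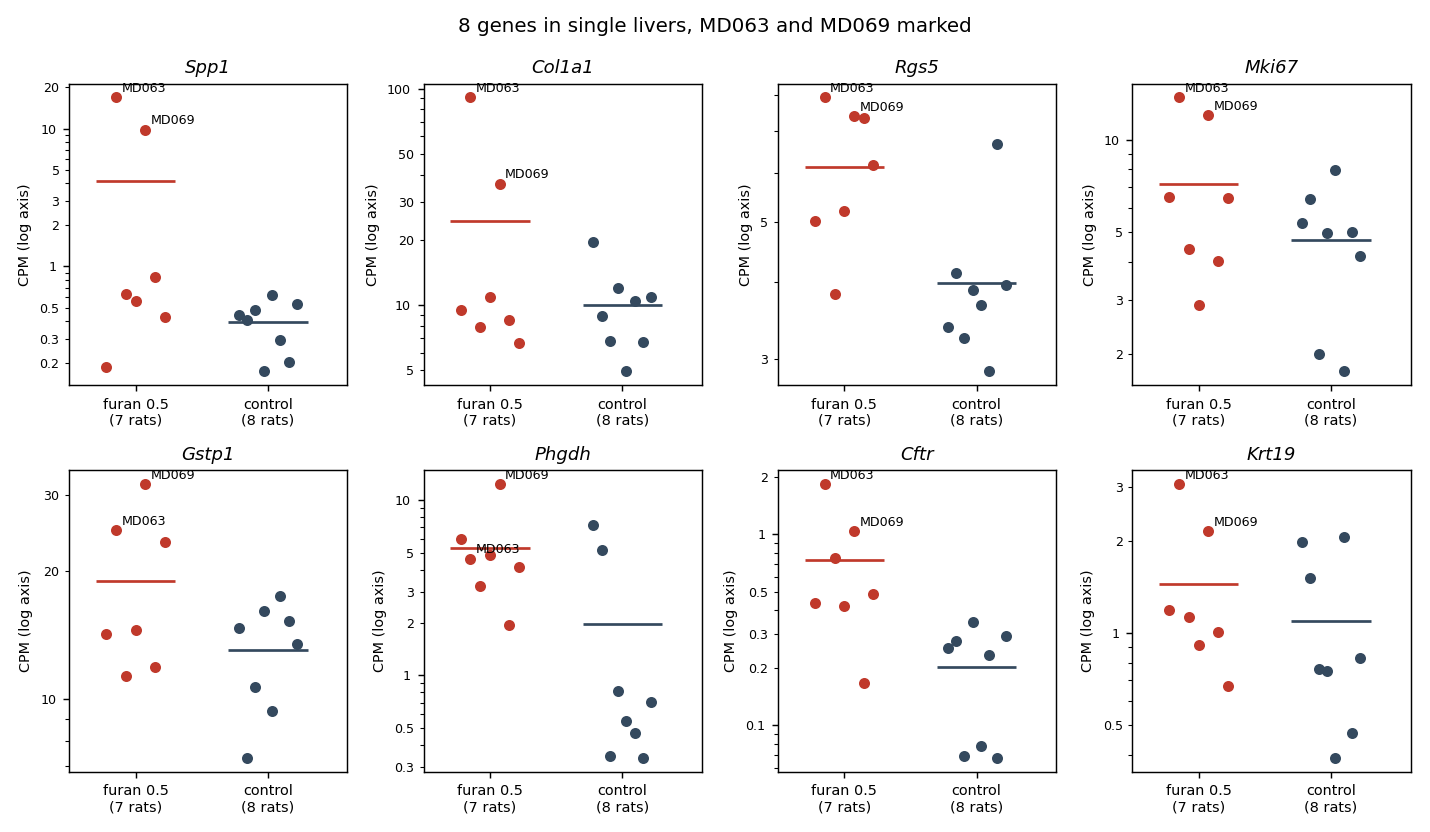
CPM per liver (log axis) of 8 genes in 7 furan 0.5 livers and 8 control livers; each point is a rat and each line the group mean, with MD063 and MD069 named. Spp1 reaches 16.9 and 9.82 CPM in this pair and at most 0.836 CPM in every other liver shown.

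The cholangiocyte marker sum lay above all other livers in both MD063 and MD069, and the stellate cell sum in MD063. The macrophage sum lay inside the control range in both. The low neutrophil sum was also highest in MD063 (5.6 CPM), against at most 4.12 CPM in the other 5 furan 0.5 livers and 3.38 CPM in controls. The hepatocyte sum was lowest in MD063 (138000 CPM), against at least 149000 CPM in controls. In whole liver, more cells of a type and more RNA per cell cannot be told apart. Cholangiocyte markers summed to 174 and 159 CPM in MD063 and MD069 and at most 132 CPM in the other 5 furan 0.5 livers, against 122 to 150 CPM in controls. This sum includes Spp1, named above for its height in the pair (16.9 and 9.82 CPM). The margin of MD069 over the highest control is about the size of its Spp1 value. Stellate cell and fibroblast markers summed to 1260 and 1010 CPM in the pair and at most 965 CPM in the other 5, against 841 to 1080 CPM in controls. Macrophage markers summed to 799 and 940 CPM in the pair and at most 811 CPM in the other 5, against 562 to 993 CPM in controls, and the median of the 16 markers was 0.04 with the pair and -0.01 without it. Of 14 cholangiocyte markers, Spp1 was called higher and 2 lower, among them the anion exchanger gene Slc4a2 (-0.18, edgeR adjusted p = 0.0257), a call lost without any of 4 single rats. Their median of 0.42 became -0.02 without the pair. Of 14 stellate markers Rgs5 was called higher (0.63, edgeR adjusted p = 0.0477; 0.48 without the pair, 0.218; call lost without any of 12 single rats), and of 34 matrix genes Spp1 was. Over all genes tested, 3.16% were called. The matrix median of 0.27 became -0.04 without the pair. Of 37 cell cycle genes 0 were called by edgeR, DESeq2 or limma voom. An unadjusted edgeR p under 0.05 was met by 2 of the 37, beside 2182 of all 12727 genes tested. The cell cycle median of 0.26 became -0.12 without the pair. The proliferation antigen gene Mki67 held 13.7 and 12 CPM in MD063 and MD069, 2.89 to 6.52 CPM in the other 5 furan 0.5 livers and 1.75 to 7.97 CPM in controls. The part of cell composition in these values was not tested.

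**Figure D3:**
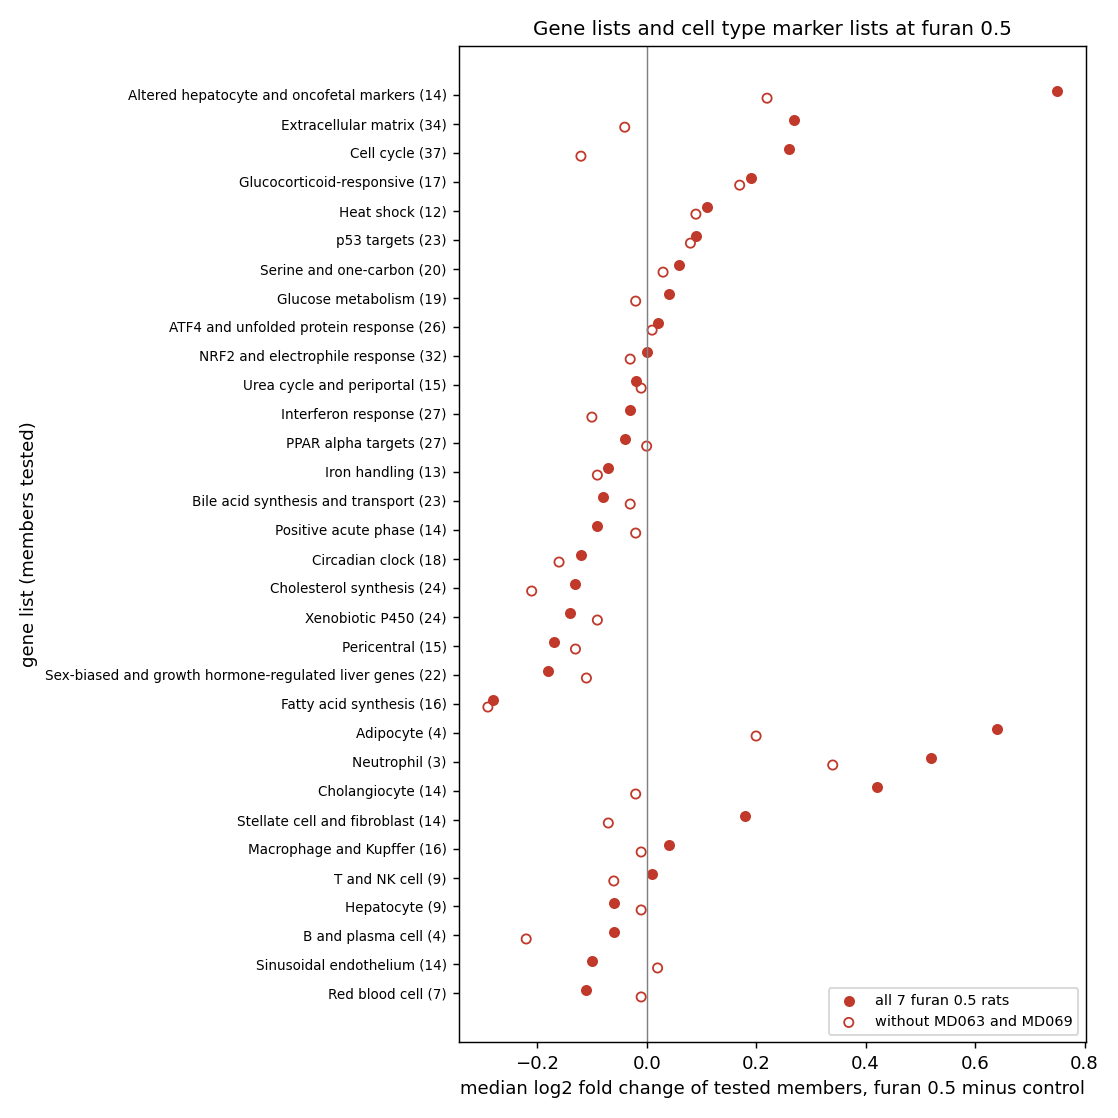
Median log2 fold change, furan 0.5 minus control, of the tested members of 22 gene lists (upper block) and 10 of the 11 marker lists (lower block), with all 7 furan 0.5 rats (filled) and without MD063 and MD069 (open). The pancreatic acinar list, with a median of -2.36 over 3 genes, lies off the scale and is left out. The cell cycle, matrix and cholangiocyte medians drop to or below 0 without the pair, and the glucocorticoid-responsive median moves to 0.17.

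Without MD063 and MD069, 326 genes were called among 12920 tested, 201 higher and 125 lower; 249 of these were among the 402, and 77 were called only then. The calls on Nr1d1 (log2 fold change 2.4), Zbtb16 (3.14), Fkbp5 (2.18) and Bhlhe40 (-1.32) were among those kept.

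Single rats were examined by leaving out each of the 15 in turn. Calls ranged from 262 without MD063 and 265 without MD071 to 428 without MD069 among furan 0.5 rats, and from 271 without MC003 to 418 without MC004 among controls. Of the 402 genes, 229 lost their call without the furan 0.5 rat that lay furthest in the direction of the change, 111 of the higher and 118 of the lower genes. The furthest rat was MD071 for 47 of these, MD063 for 42, MD064 for 41, MD072 for 36, MD067 for 26, MD069 for 23 and MD062 for 14. Leaving out 1 control also lost 66 (MC004) to 138 (MC003) of the 402 calls. Leaving out 1 furan 0.5 rat lost 68 (MD062) to 159 (MD071). A lost call thus does not show that 1 rat made the change. The call held without each of the 15 rats for 166 genes. A fold change made by 1 rat was looked for by a different rule, so its counts cannot be set against those of lost calls. Dixon's criterion can miss a rat when another is also extreme, as MD063 and MD069 were together. Of 177 genes that differed by at least 2-fold, none had a single furan 0.5 rat that stood apart by Dixon's criterion on the log2 CPM scale and took more than 50% of the difference with it when left out; on the CPM scale 8 did, and none of those 8 was called. These were Postn, Rasl11b, Srpx2, Col1a1, Gem and Olr1, all highest in MD063, Rec114 in MD064 and AABR07026270.1 in MD067. Postn, encoding the matrix protein periostin, held 3.16 CPM in MD063 and 1.04 CPM in MD069, at most 0.0611 CPM in the other 5 furan 0.5 livers and at most 0.0781 CPM in controls. Rec114, a meiotic recombination gene, held 2.7 CPM in MD064 and at most 1.06 CPM in the other furan 0.5 livers, against at most 0.391 CPM in controls.

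**Figure D4:**
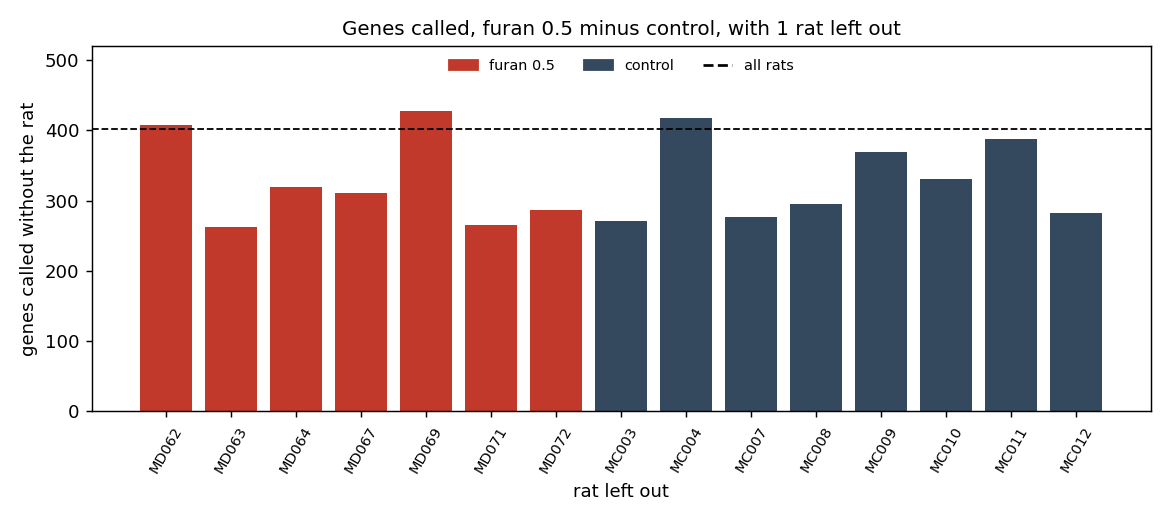
Number of genes called, furan 0.5 minus control, after leaving out each of 7 furan 0.5 rats (left) and each of 8 control rats (right); the dashed line is the 402 calls with all rats. Calls lie between 262 (without MD063) and 428 (without MD069).

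The neighbouring doses were compared with 0.5 mg/kg directly, without the controls. Between furan 0.5 and 0.12, edgeR called 0 of 12727 genes (0%), with 322 at an unadjusted p under 0.05. DESeq2 and limma voom also called 0, with 440 and 311 at an unadjusted p under 0.05. Between furan 2.0 and 0.5, 4093 genes were called (32.2%), 1991 higher and 2102 lower. Scaling by library size alone gave 7541 higher and 516 lower there and moved the median of all genes to 0.33, so changes between these doses are relative to the TMM factors. Against the same 8 controls, 247 genes (1.94%) were called at 0.12 and 5923 (46.5%) at 2.0.

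Fold changes over these shared controls are given side by side from 0.03 to 2.0 mg/kg. Zbtb16 stood at 1.91, 2.79, 2.92 and 2.6 on the log2 scale, Fkbp5 at 1.05, 2.13, 1.97 and 1.76, and Nr1d1 at 0.22, 1.4, 2.22 and 2.77. None of these 3 differed between 2.0 and 0.5 at an adjusted p under 0.05 (edgeR adjusted p = 0.667, 0.696 and 0.181). Zfp354a stood at 1.79, 2.25, 2.04 and 0.78 and was lower at 2.0 than at 0.5 (-1.26, edgeR adjusted p = 0.0127). Eif2ak3 and Dnajb9 were also lower at 2.0 than at 0.5 (-0.45 and -0.81, edgeR adjusted p = 0.000137 and 0.000398). Dusp1 stood at 0, -0.84, -1.1 and -2.52, and Bhlhe40 at -0.28, -0.83, -1.26 and -1.6. Gstp1 stood at -0.06, 0.19, 0.53 and 3.46, Mki67 at 0, 0.13, 0.62 and 1.88 and Cd24 at 0.17, 0.45, 1.15 and 2.83; each was higher at 2.0 than at 0.5 (2.93, 1.26 and 1.67, edgeR adjusted p = 1.82e-08, 0.00347 and 2.17e-07). Spp1 stood at 1.05, 1.58, 3.42 and 5.15. Livers at 2.0 mg/kg were not alike either. Spp1 held 20.8 to 30.4 CPM in ME081, ME082, ME083 and ME085. It held 3.27, 0.44 and 0.221 CPM in ME092, ME086 and ME089. Gstp1 held 20.9 CPM in ME086 and 118 to 198 CPM in the other 2.0 livers. Without MD063 and MD069 the log2 fold changes at 0.5 were 0.2 for Gstp1, 0.06 for Mki67, 0.97 for Cd24 and 0.44 for Spp1.

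**Figure D5:**
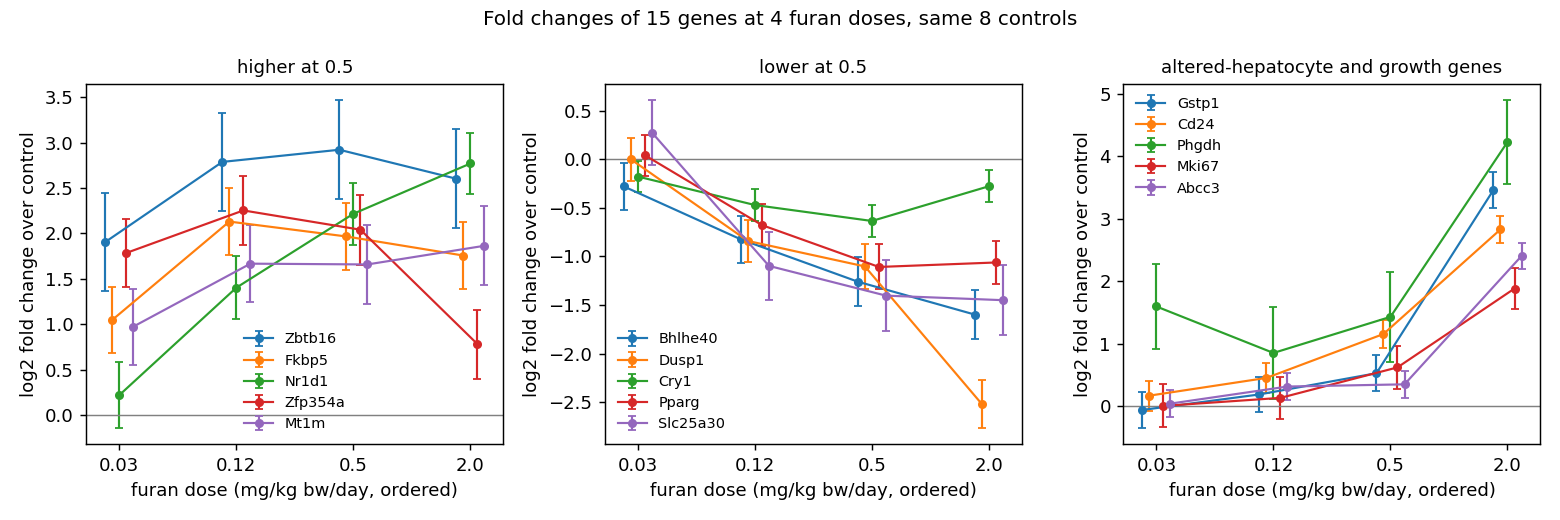
Log2 fold change over the same 8 controls (points, bars ± SE) of 15 genes at 4 furan doses, shown in order and not to scale. Zbtb16 lies at 2.79, 2.92 and 2.6 at the 3 higher doses, while Gstp1 lies at 0.53 at 0.5 and 3.46 at 2.0 mg/kg.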

How the data were processed

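Furan libraries came from liver RNA and were made, per the labels, with the Illumina Stranded mRNA prep kit. Per the submitters' processing notes, reads were handled with featureCounts 2.0.0, STAR 2.7.1a and DESeq2 1.26.0 on Rnor_6.0; these notes name no annotation release or strand setting. The deposited table holds a whole-number read count per gene and run, without normalization. The authors' deposited comparison table gives a signed fold change and an adjusted p-value per gene, and is also the source of the gene symbols.

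Both runs of each rat were added up, since their counts differed by little more than sampling noise (chi-square per degree of freedom 1.01 to 1.05; at least 8.81 between 2 rats of a group). All 38 furan rats in 5 groups entered 1 edgeR 4.0.16 fit (R 4.3.3; filterByExpr with a minimum count of 10, TMM, robust quasi-likelihood F test, 33 residual degrees of freedom), without a block, since groups share no replicate numbers. Benjamini-Hochberg adjustment covered the 12727 genes tested of 32883. Whether rats were caged or processed together is not stated, so p-values measure the spread between these animals. A standard error is the fold change divided by the square root of F. The fit was tested on simulated counts.

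The members, the 22 gene lists, the 11 marker lists and the rules were chosen with earlier results of these data known. Named genes are Cyp2e1; called genes of at least 1 CPM with the 12 largest changes in each direction and all rats on 1 side; the 8 with the smallest adjusted p in each direction; up to 6 called members per list; and genes carried by 1 rat. Genes with no call, genes of the MD063 and MD069 pattern, Hlf, Aldh1a7 and neighbouring genes were named after their values were seen. Alternatives were DESeq2 1.42.0, limma 3.58.1 voom, 2 other scalings, 2 other filters, single runs, 2 groups only, a 1.5-fold minimum and leaving out rats. Leaving out MD063 and MD069 together, the CACGTG and AGGTCA motifs and the neighbour search were added after the data were seen. Some called genes are not reported here by name; list counts include them.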

Additional observations from a re-analysis of the deposited data

Results flagged for a closer look

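In 150 groups of 4 to 10 rats examined over 71 named genes and the library measures, 6 values stood apart from the rest of their group by Dixon's criterion, which chance meets in about 1 of 20 groups. Of these, 5 came from control liver MC011. It held 20.7 CPM of Nr1d2, above the 11.1 to 14.2 CPM of the other 7 controls, and 6.67 CPM of Rgs5, above 2.87 to 4.12 CPM. It held 10.5 CPM of Per1, below 22.7 to 39.7 CPM, 16.5 CPM of Per2, below 29.8 to 46.2 CPM, and 37.3 CPM of Tsc22d3, below 106 to 183 CPM. The remaining value was the 2.2 CPM of Gcnt4 in furan 0.5 liver MD062, below the 3.17 to 4.14 CPM of the other 6 furan 0.5 livers.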

How the results depend on the processing

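Of the 53 called genes named by the rule, 36 kept direction and call under every alternative that tested them, the joint leaving out of MD063 and MD069 aside, and 0 of the 53 changed direction under any alternative run. The 402 calls became 157 with a 1.5-fold minimum (93 higher, 64 lower; 1265 between furan 2.0 and 0.5) and 249 with no count filter (121 lower), where more genes enter the adjustment. Library size scaling gave 330 higher and 98 lower calls, and 8057 between 2.0 and 0.5. Leaving out 1 rat gave 262 to 428 calls, 118 to 230 of them higher and 116 to 229 lower. Without both MD063 and MD069, 125 were lower. Calls lost without the furthest furan 0.5 rat numbered 64 with the 1.5-fold minimum. On the CPM scale, 8 genes of at least 2-fold had 1 rat that stood apart. No call between 0.5 and 0.12 appeared under any alternative run.

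Among uncalled genes the sign reversed for Cyp2e1 without single rats (-0.02 to 0.12), for Dbp (-0.01 with voom, -0.04 with run 1, -0.12 to 0.14 without 1 rat), for Scd (0.15 with voom) and for Tsc22d3 (-0.02 with voom, -0.12 to 0.21 without 1 rat). Without MD063 and MD069 it reversed for Col1a1 (-0.22), Krt19 (-0.17), Postn (-0.8), Dbp (-0.28) and Tsc22d3 (-0.13). The cause was not tested. No paired analysis was possible because the groups share no replicate numbers. Genes under 1 CPM rest on few counts, and 15 called genes lay below it in both groups.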
